A study of Mus musculus with 142 samples.

Results

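The clustered protocadherins are 57 of the 47665 genes with a count in these libraries. They were taken by symbol alone, as the protein-coding genes named Pcdha, Pcdhb, Pcdhga, Pcdhgb or Pcdhgc with a number, together with Pcdhac1 and Pcdhac2. No expression value entered the choice. There were 14 alpha, 22 beta and 21 gamma members, and the gamma members comprised 12 of the A type, 6 of the B type and 3 of the C type. Pcdhac1, Pcdhac2, Pcdhgc3, Pcdhgc4 and Pcdhgc5 are the 5 C-type members. The annotation gave the symbol Pcdha11 to a pair of genes, and the one listed in RefSeq as Pcdha10 is called Pcdha10 here. Pcdhgb8 also has a symbol of this form, but it is annotated as a polymorphic pseudogene and was not counted as a member.

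Clustered protocadherins are cadherin-like adhesion proteins encoded in tandem on a single chromosome. Each variable exon of the alpha and gamma clusters has its own promoter and is spliced to constant exons that encode a common cytoplasmic tail, whereas beta members have no shared exons and mostly consist of a single exon. In neurons most of these promoters are chosen stochastically in each cell with the help of CTCF, cohesin and promoter DNA methylation, C-type members are expressed more uniformly, and homophilic binding of the chosen isoforms underlies self-recognition of neurites.

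RNA-seq was performed on oligodendrocyte precursor cells (OPCs), the cells that divide and mature into myelin-forming oligodendrocytes. OPCs were purified by binding to anti-PDGFRa plates from the brainstem or the dorsal telencephalon (cortex, corpus callosum and hippocampus) of pups aged P5 to P7, from AMGFAP-Cre;K27M litters. K27M cells carried a knock-in of the K27M mutation at H3f3a, the gene for histone H3.3, released by a Cre under the human GFAP promoter (hGFAP-Cre) that acts in neural stem and progenitor cells, and control cells came from littermates labelled Control. Pups were pooled by region and genotype, so each of the 3 cultures of a region and genotype (38, 41 and 42) is a pool of animals and not 1 animal. The groups were brainstem K27M, brainstem control, telencephalon K27M and telencephalon control, each in proliferation medium with PDGF (day 0) and after 1, 2 and 5 days in differentiation medium with thyroid hormone. All cells, controls included, were passaged and grown with forskolin and CNTF. The 16 groups held 9 libraries each, except that brainstem K27M at day 2 and brainstem control at day 1 held 8.

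The libraries held 26.6 to 455 M counted fragments with a median of 46.9 M, of which 13744 to 282497 fell on the members. Wells of a culture share their cells, so p-values over libraries are too small. In most comparisons the p-value after the wells of a culture and day were summed is given as well. Telencephalon culture 38 belongs to batch 1 and its other 2 cultures to batch 2, whereas brainstem culture 38 belongs to batch 3 and its other 2 cultures to batch 4. Region and batch therefore cannot be told apart. H3f3a was at 247 to 438 TPM in K27M libraries and at 40.0 to 324 TPM in control libraries, and Prm1, part of whose sequence the Cre construct carries, was at 53.4 to 230 TPM in K27M and at most 0.0482 TPM in control. Prm1 separated all libraries by their labelled genotype while the H3f3a ranges overlapped, and neither level shows the mutated codon. By the study's methods, control littermates lacked Cre and kept the stop cassette before the mutant allele. OPC and cycling markers were lower and myelin markers higher at day 5 than at day 0 in median. Neuron markers summed to 4.13 to 121 TPM, microglia markers to at most 1.60 TPM and vascular and fibroblast markers to at most 8.46 TPM. Brainstem control libraries at day 5 had 29480 to 33791 genes detected in culture 41 and 24939 to 32706 in culture 42, against at most 29317 in any other culture and day. Those of culture 42 thus overlapped the rest in part. Brainstem results at day 5 are also given without the day 5 libraries of both cultures, in K27M and control. Only wells of culture 38 then remain at day 5 in brainstem, so effect sizes are given without p-values.

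All members lie on the plus strand of chromosome 18 (GRCm38). The alpha cluster spans 36930184 to 37187661, the beta cluster 37264938 to 37524479 and the gamma cluster 37661793 to 37841873. The shared 3′ exons of the alpha and gamma transcripts measure 2860 and 2119 bases, and reads that fall in them match every member of the cluster, so Salmon divided them by a statistical model. Counts that were not whole (tolerance 0.01) made up 98.1% of the alpha and 97.9% of the gamma values above 0, against 82.7% of the beta values. Only 10.7% of alpha and 8.76% of gamma counts lay on transcript models without the shared exons. The level of a single alpha or gamma member is therefore an estimate, while the sum over a cluster does not depend on how its shared reads were divided among members. Pcdhgb8 is not in the gamma sum, and its counts were 4.07% of those of the gamma members. Any reads divided between Pcdhgb8 and the members can therefore move the gamma sum. Sums over the gamma A, B or C type alone do depend on it, because these types share the gamma exons.

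Every cluster was expressed in cultured OPCs, with gamma and beta far above alpha. The mean over all libraries, per transcript length, was 60.7 TPM for the gamma cluster, 46.4 TPM for the beta cluster and 7.99 TPM for the alpha cluster, which is 52.7%, 40.3% and 6.94% of the members' sum. Pcdhgc3 alone averaged 29.9 TPM. It was followed by Pcdhb10 with 6.09 TPM, Pcdhb8 with 3.17 TPM, Pcdhb16 with 3.02 TPM and Pcdhb22 with 2.81 TPM. The highest gamma A and B members were Pcdhga7 (2.28 TPM), Pcdhga4 (2.17 TPM) and Pcdhga11 (2.13 TPM). No alpha member averaged above the 1.18 TPM of Pcdha4, with Pcdhac2 at 0.95 TPM, Pcdha11 at 0.91 TPM and Pcdha10 at 0.77 TPM. Pcdha1 (0.05 TPM) and Pcdhb1 (0.12 TPM) were the lowest members. Of the 57 members, 56 had a count in every library and all passed the filter on low counts. Members at 1 TPM or more in the mean of the 3 cultures numbered 29 in brainstem control at day 5 and 47 in brainstem control at day 1, the lowest and highest of the 16 groups.

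Differentiation moved the clusters in different directions. The beta cluster sum was higher at day 5 than at day 0 in all 4 region and genotype groups, the C-type members Pcdhac2 and Pcdhgc4 were lower in all 4, and the alpha sum passed the test in none. CPM below are counts scaled by TMM and library size, and a level is given as the lowest, the median and the highest library. The beta sum had medians of 245, 423, 499 and 402 CPM at days 0, 1, 2 and 5 in brainstem K27M cells and 267, 445, 523 and 404 CPM in brainstem control cells. The medians were 195, 319.9, 421 and 345 CPM in telencephalon K27M cells and 204, 369, 445 and 313 CPM in telencephalon control cells. Each series was highest at day 2 and stayed above its day 0 level at day 5. The log2 fold change of day 5 over day 0 was 0.77 ± 0.09 (SE) in brainstem K27M (adjusted p = 2.1e-14, 6.5e-05 on culture sums) and 0.60 ± 0.09 in brainstem control (adjusted p = 4.7e-10, 0.0025 on culture sums). It was 0.91 ± 0.09 in telencephalon K27M (adjusted p = 1.6e-18, 4.3e-06 on culture sums) and 0.66 ± 0.09 in telencephalon control (adjusted p = 1.0e-11, 0.00037 on culture sums). Adjusted p-values are from edgeR's quasi-likelihood test with Benjamini-Hochberg adjustment over all genes tested. Bulk RNA cannot tell fewer expressing cells from less RNA per cell, here or in any comparison that follows. Of 6 astrocyte markers, 3 rose in brainstem K27M, 4 rose and 1 fell in brainstem control, 6 rose in telencephalon K27M and 5 in telencephalon control over the same days, with medians of 2.79, 3.45, 3.49 and 3.58 on the log2 scale, and all 6 myelin markers rose in each group. Of 7 neuron markers tested, 3 rose and 3 fell in brainstem K27M, 3 and 3 in brainstem control, 4 and 1 in telencephalon K27M and 4 and 3 in telencephalon control. The median sum of the neuron markers was 10.7, 10.7, 12.3 and 10.9 TPM at day 0 in the same order. It was 57.2, 57.4, 81.1 and 79.4 TPM at day 5. The part of these cell types in the changes of the members was not tested.

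**Figure D1:**
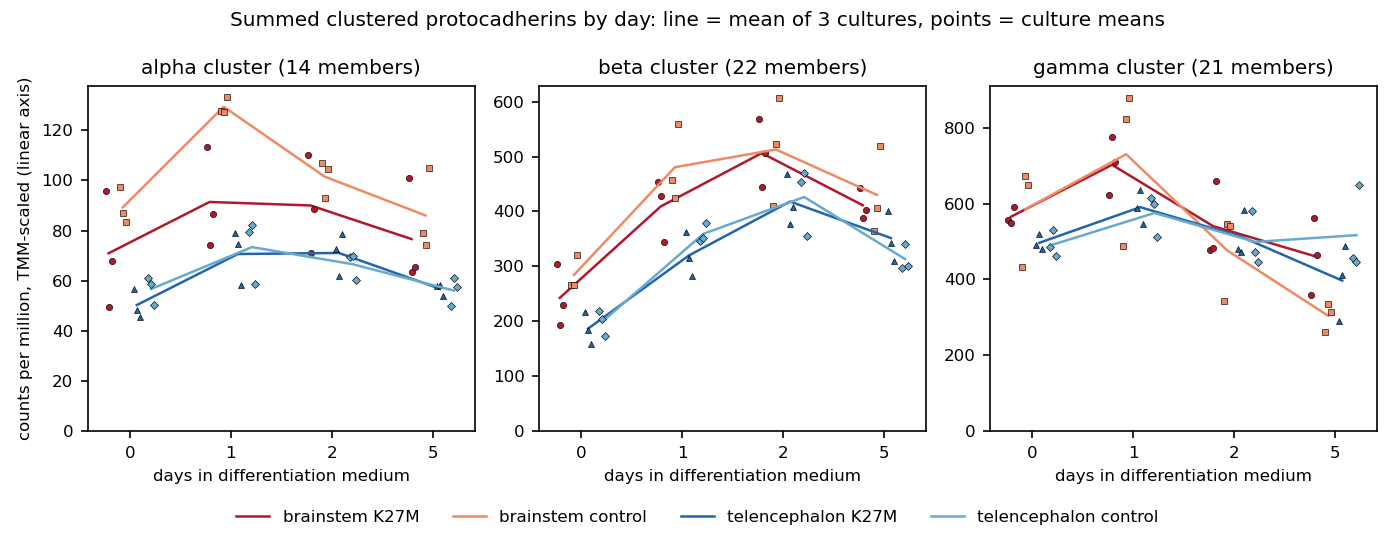
Summed expression of the alpha, beta and gamma clusters (CPM, TMM-scaled) against days in differentiation medium, with a point for each culture mean (3 per group) and lines through the group means. Beta levels peak at day 2 in all 4 groups, alpha levels are higher in brainstem than in telencephalon controls at every day, and brainstem control cells have the lowest gamma median at day 5 (313 CPM).

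More members were higher than lower at day 5 in each group. Of the 57 members, 34 were higher and 5 lower at day 5 in brainstem K27M cells, where 39.1% of all genes tested were higher and 33.2% lower. In brainstem control cells 25 were higher and 8 lower (40.5% and 35.1% of all genes). In telencephalon K27M cells 38 were higher and 4 lower (40.9% and 34.7% of all genes), and in telencephalon control cells 35 were higher and 5 lower (41.0% and 34.1% of all genes). On culture sums, 97 of the 228 member comparisons in the 4 groups were higher and 18 lower, against 32.5% and 27.1% over all genes. Of the 22 beta members, 21 were higher in brainstem K27M, 18 in brainstem control, 21 in telencephalon K27M and 16 in telencephalon control, with median log2 fold changes of 0.75, 0.59, 0.91 and 0.67 against 0.06 to 0.09 over all genes. The median of the 14 alpha members lay between -0.08 and 0.37 in the same 4 groups. The set of 21 members that were higher in all 4 groups held 16 beta members, Pcdha10, Pcdha12, Pcdhac1, Pcdhga1 and Pcdhga7, and 14 of the 21 were also called on culture sums in every group. The share of all genes called in the same direction in all 4 groups is not given here. Counts of members called in all 4 groups therefore only list members.

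Pcdhb9 had the largest rise of the 57 members in each of the 4 groups. Its lowest, median and highest libraries had 2.35, 4.22 and 6.61 CPM at day 0 and 15.7, 17.8 and 20.5 CPM at day 5 in brainstem K27M cells, and 5.18, 8.40 and 14 CPM at day 0 and 14.2, 26.1 and 38.7 CPM at day 5 in brainstem control cells. In telencephalon K27M cells they had 1.79, 2.54 and 4.48 CPM at day 0 and 8.75, 11.2 and 17.4 CPM at day 5, and in telencephalon control cells 1.82, 3.02 and 3.88 CPM at day 0 and 6.85, 10.5 and 16.8 CPM at day 5. Day 5 and day 0 libraries did not overlap in any of the 4 groups, and the log2 fold changes were 2.05, 1.58, 2.17 and 1.93 in the order given. Pcdhb3 rose by 1.22, 0.92, 1.82 and 1.31 on the log2 scale in the same order, and Pcdhb7 by 1.06, 0.94, 1.35 and 1.21. Pcdha12 was the alpha member with the largest rise in telencephalon, at 1.49 in K27M and 1.47 in control. Pcdhb1 went the other way from the rest of its cluster. It was a trace transcript with day 0 medians of 0.608, 1.21, 0.621 and 0.770 CPM in the 4 groups, and its log2 fold changes were -0.89, -2.31, -1.86 and -2.21 (adjusted p on culture sums 0.047, 6.8e-06, 0.00014 and 2.3e-05). Without the block the culture sums gave adjusted p = 0.057 for Pcdhb1 in brainstem K27M.

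The days of highest expression differed between clusters. The mean of the 3 cultures was highest at day 2 for 20 of the 22 beta members in brainstem K27M, 8 in brainstem control, 18 in telencephalon K27M and 20 in telencephalon control. In brainstem control cells 13 of the 22 were highest at day 1. It was highest at day 2 for 9 of the 14 alpha members in brainstem K27M and 8 in telencephalon K27M, and at day 1 for 12 in brainstem control and 11 in telencephalon control. These peak days are a description and were not tested.

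Of the 4 members that were lower in all 4 groups over wells, 3 were C-type members (Pcdhac2, Pcdhgc3 and Pcdhgc4), and the other was Pcdhb1. Pcdhgc4, a C-type isoform needed for the survival of some neurons in mice, had 12.1, 16.7 and 20.5 CPM at day 0 and 4.77, 7.12 and 10.8 CPM at day 5 in brainstem K27M cells (lowest, median and highest library). It had 12.6, 18.4 and 23.2 CPM at day 0 and 3.72, 4.57 and 7.33 CPM at day 5 in brainstem control cells. No day 5 library of either group reached the lowest day 0 library. The fall was -1.16 in brainstem K27M, -1.77 in brainstem control, -1.37 in telencephalon K27M and -1.29 in telencephalon control on the log2 scale, with adjusted p on culture sums of 3.6e-05, 4.4e-08, 3.9e-06 and 9.7e-06. Pcdhac2, the alpha C-type member that serotonergic axons in mice need for tiling, had 12.2, 19.4 and 21.4 CPM at day 0 and 6.92, 8.09 and 10.1 CPM at day 5 in brainstem K27M cells, and 14.7, 17.2 and 20.3 CPM at day 0 and 4.25, 5.26 and 7.00 CPM at day 5 in brainstem control cells. Its log2 fold changes were -1.16, -1.68, -1.02 and -0.85 in the same order of groups. Pcdhgc5 fell by 1.27 in brainstem control (adjusted p = 0.00023 on culture sums), while its values of -0.57 in brainstem K27M, -0.46 in telencephalon K27M and 0.00 in telencephalon control had adjusted p of 0.057, 0.13 and 0.91 on culture sums. Pcdhac1, the remaining C-type member, rose in all 4 groups over wells, by 0.61, 0.45, 0.73 and 0.43 on the log2 scale, with adjusted p on culture sums of 0.022, 0.12, 0.0062 and 0.11.

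**Figure D2:**
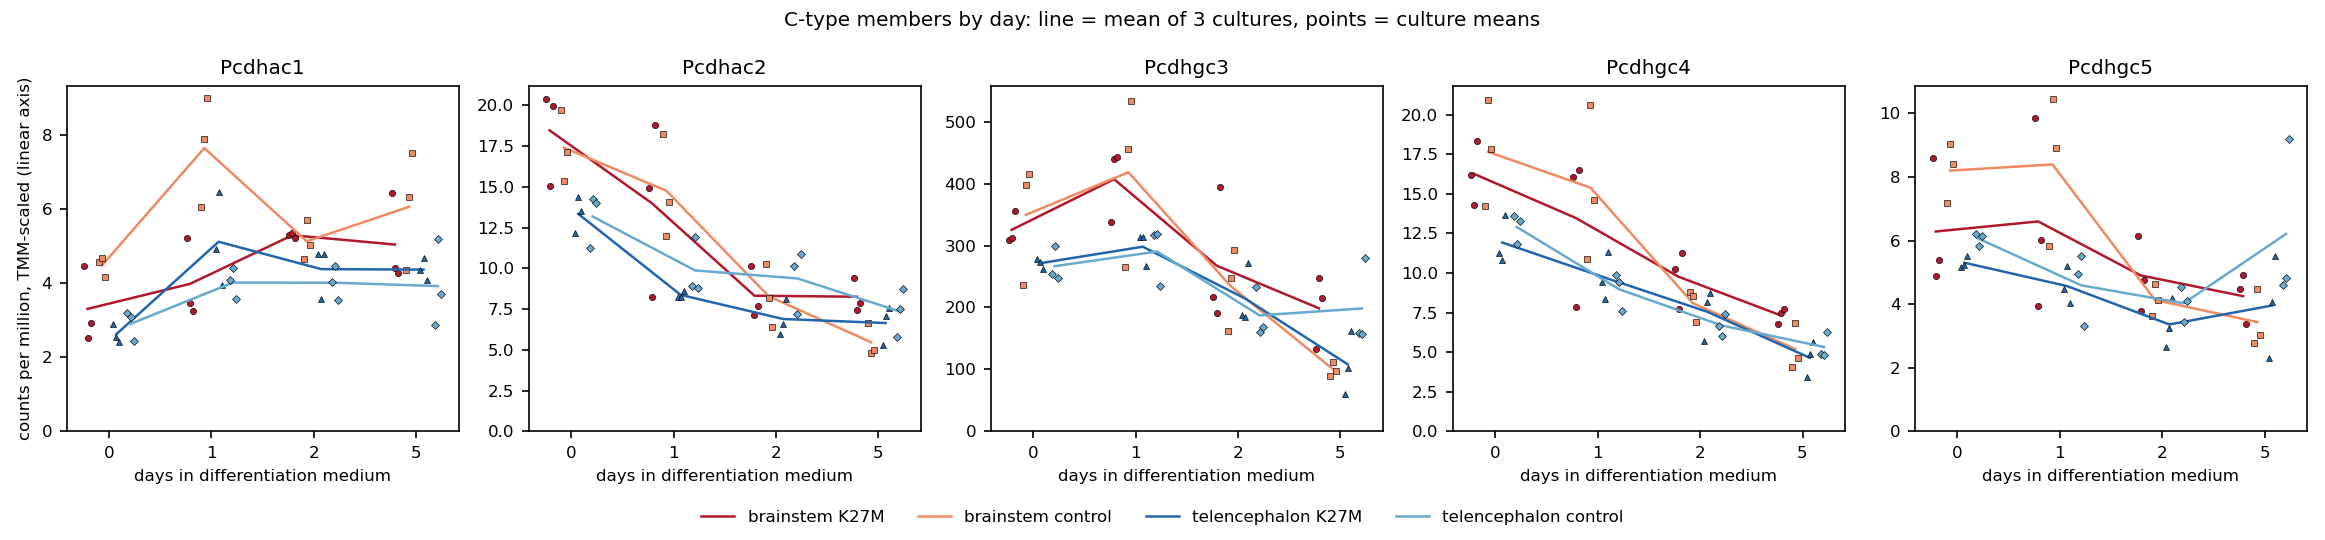
Expression of the 5 C-type members (CPM, TMM-scaled) against days in differentiation medium, with a point for each culture mean (3 per group) and lines through the group means. Pcdhac2 and Pcdhgc4 fall in all 4 groups, whereas Pcdhgc3 in brainstem K27M cells (median 219 CPM) and in telencephalon control cells (median 176 CPM) stays above brainstem control (93.1 CPM) and telencephalon K27M (99.5 CPM) at day 5.

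Pcdhgc3, the most abundant member, was lower at day 5 in all 4 groups over wells. At day 0 its lowest, median and highest libraries had 195, 358 and 407 CPM in brainstem K27M, 204, 379.8 and 485 CPM in brainstem control, 248, 264 and 318 CPM in telencephalon K27M and 186, 274 and 317 CPM in telencephalon control cells. At day 5 they had 102, 219 and 262 CPM in brainstem K27M and 86.7, 93.1 and 119 CPM in brainstem control cells. In the telencephalon they had 56.7, 99.5 and 166 CPM in K27M and 139, 176 and 313 CPM in control cells at day 5. The log2 fold change of day 5 over day 0 was -0.76 ± 0.16 in brainstem K27M (adjusted p = 9.2e-06, 0.0067 on culture sums), -1.76 ± 0.16 in brainstem control (adjusted p = 3.5e-19, 3.9e-07 on culture sums) and -1.36 ± 0.16 in telencephalon K27M (adjusted p = 1.6e-13, 1.6e-05 on culture sums). The value of -0.45 ± 0.16 in telencephalon control was called over wells (adjusted p = 0.0068) but not on culture sums (adjusted p = 0.082). Without the brainstem day 5 libraries of cultures 41 and 42, the brainstem control log2 fold changes of day 5 over day 0 were -1.58 for Pcdhgc3, -2.08 for Pcdhgc4 and -1.64 for Pcdhac2. The share of Pcdhgc3 in the gamma TPM at day 0 was 56.8%, 58.6%, 54.1% and 53.6% in the 4 groups, and at day 5 it was 41.9%, 32.0%, 25.7% and 37.2%. Only 4.3% of Pcdhgc3 counts lay on transcript models without the shared gamma exons (1.61% to 26.9% in a library).

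As estimated by Salmon, gamma A and B members moved apart from the C type. The A, B and C types share the gamma exons, so their separate sums depend on how shared reads were divided. In telencephalon control cells 16 of the 18 A and B members rose and none fell (41.0% and 34.1% of all genes). In telencephalon K27M cells 13 rose and none fell (40.9% and 34.7% of all genes). In brainstem K27M cells 6 rose and none fell (39.1% and 33.2% of all genes). In brainstem control cells 2 rose and 3 fell (40.5% and 35.1% of all genes). The share of members that rose was thus below that of all genes in both brainstem groups. The gamma A sum changed by 0.39 ± 0.09 in telencephalon K27M and 0.53 ± 0.09 in telencephalon control on the log2 scale (adjusted p = 0.027 and 0.0016 on culture sums). It changed by 0.17 ± 0.09 in brainstem K27M and -0.09 ± 0.09 in brainstem control (adjusted p = 0.47 and 0.25 on culture sums). The gamma B sum gave 0.51 ± 0.10 and 0.64 ± 0.10 in telencephalon K27M and control cells, against 0.21 ± 0.10 and -0.08 ± 0.10 in brainstem K27M and control cells. With all types added, the gamma sum fell by 0.32 in brainstem K27M, 0.92 in brainstem control and 0.33 in telencephalon K27M (adjusted p = 0.047, 4.3e-06 and 0.039 on culture sums). Without the block those of brainstem K27M and telencephalon K27M were not called (adjusted p = 0.17 and 0.12). Its log2 fold change in telencephalon control was 0.06 ± 0.11 (adjusted p = 0.94 on culture sums). Without the brainstem day 5 libraries of cultures 41 and 42 the brainstem control value of the gamma sum was -0.86 and the beta value 0.30.

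The alpha cluster was higher in brainstem than in telencephalon controls on all 4 days over wells, and at days 0 and 1 also on culture sums without the block. The alpha sum was 68.4 to 102 CPM with a median of 89.1 in brainstem control and 46.1 to 65.7 CPM with a median of 54.4 in telencephalon control cells at day 0. The medians at days 1, 2 and 5 were 122, 101 and 82.0 CPM in brainstem control, against 72.9, 69.7 and 55.3 CPM in telencephalon control cells. Libraries of the regions did not overlap on any of the 4 days. The log2 fold change of brainstem over telencephalon was 0.66 ± 0.10, 0.83 ± 0.10, 0.61 ± 0.10 and 0.62 ± 0.10 at days 0, 1, 2 and 5. Since the cultures of the regions are different lines, a fit with culture within region as a block understates the error here, and culture sums without the block are the stricter test: their adjusted p was 0.041, 0.0023, 0.054 and 0.056. At day 5 the brainstem value rested in part on cultures 41 and 42, without which it was 0.27. Brainstem control cultures had been passaged 3 to 8 times, against 1 to 4 times in telencephalon control, and with passage as a covariate over wells the alpha sum gave 0.35, 0.48, 0.25 and 0.28, of which the day 2 value was not called (adjusted p = 0.061). Astrocyte markers were lower in brainstem controls at the same days, with 4, 4, 5 and 6 of 6 called lower and 1, 1, 0 and 0 higher, and their part in the regional differences was not tested.

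Pcdha5 was the alpha member with the largest regional difference and the only member called higher at all 4 days on culture sums without the block. Its lowest, median and highest libraries had 5.19, 8.65 and 10.6 CPM in brainstem control and 1.48, 2.39 and 3.24 CPM in telencephalon control cells at day 0. At day 2 they had 7.56, 9.78 and 13.9 CPM in brainstem control and 1.51, 2.11 and 3.17 CPM in telencephalon control cells. No library of the regions overlapped at either day, and the log2 fold changes were 1.86, 1.99, 2.25 and 2.06 at days 0, 1, 2 and 5 (adjusted p = 0.00087, 0.00021, 8.1e-05 and 0.00030). Pcdha2 was higher by 1.78 at day 1 and 1.97 at day 2 (adjusted p = 0.012 and 0.015), and Pcdha8 by 1.37 at day 1 (adjusted p = 0.0047). The brainstem control cultures 38, 41 and 42 were not alike for Pcdha2. Its share of the alpha TPM, as the mean over the 4 days, was 2.21%, 5.37% and 6.08% in them. In telencephalon control cultures 38, 41 and 42 that share was 2.71%, 2.48% and 1.93%. Pcdhac1 was higher by 0.91 at day 1 (adjusted p = 0.0029). At day 5 Pcdha5 gave 1.08 over wells without the brainstem libraries of cultures 41 and 42. The p-values of Pcdha2, Pcdha5, Pcdha8 and Pcdhac1 are from culture sums without the block.

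Over wells, 33 members were higher and 6 lower in brainstem than in telencephalon controls at day 0 (15.8% and 20.4% of all genes), and 33 were higher and 4 lower at day 1 (25.1% and 29.0% of all genes). At day 2 the counts were 20 higher and 14 lower (18.8% and 19.4% of all genes), and at day 5 they were 27 higher and 20 lower (21.6% and 21.5% of all genes). On culture sums without the block 35 of the 228 member comparisons were higher and 18 lower, against 3.63% and 4.44% over all genes. Over wells, 113 were higher and 44 lower without a passage term and 46 higher and 38 lower with passage as a covariate. Of the 14 alpha members 11 were higher at day 0, 11 at day 1, 9 at day 2 and 10 at day 5, with median log2 fold changes of 0.67, 0.82, 0.70 and 0.92. The 17 members higher at every day over wells were Pcdha2 to Pcdha9, Pcdha11, Pcdhb2 to Pcdhb5, Pcdhb7 to Pcdhb9 and Pcdhb11. At every day 6 of the 17 were also called on culture sums, and 1, Pcdha5, on culture sums without the block. The share of all genes called in the same direction at every day is not given here. Counts of members called at every day, here and below, therefore only list members. Of the 17, 11 were also followed with passage as a covariate, where Pcdha4 at day 2 (-0.086), Pcdhb3 at day 2 (-0.15), Pcdhb5 at days 1 and 2 (-0.23 and -0.011), Pcdhb7 at day 2 (-0.11) and Pcdhb9 at days 1, 2 and 5 changed sign. In K27M cells 88 of the 228 regional comparisons were higher and 9 lower over wells (12.6% and 13.3% of all genes), but none was called in either direction on culture sums without the block, where 1.5% and 0.684% of all genes were. The alpha sum in K27M cells differed between brainstem and telencephalon by 0.46 ± 0.10, 0.36 ± 0.10, 0.30 ± 0.10 and 0.41 ± 0.10 on the log2 scale at days 0, 1, 2 and 5 (adjusted p = 0.22, 0.29, 0.64 and 0.22 on culture sums without the block).

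Beta members also had higher levels in brainstem controls over wells. The beta sum was higher in brainstem controls by 0.52 ± 0.09, 0.39 ± 0.09, 0.27 ± 0.09 and 0.45 ± 0.09 on the log2 scale at days 0, 1, 2 and 5, none of which passed on culture sums without the block (adjusted p = 0.070, 0.057, 0.35 and 0.12). With passage as a covariate the beta value was -0.0040 at day 1 and -0.14 at day 2. Along the 22 beta members the regional log2 fold change decreased with position, with a Spearman coefficient across members of -0.61, -0.75, -0.82 and -0.72 at the 4 days. The median over the first 11 members was 0.71, 0.48, 0.55 and 0.69, and over the last 11 it was 0.49, 0.31, 0.09 and 0.28. Members share libraries and neighbours, so these coefficients carry no test. Pcdhb9, in the first group, had 5.18, 8.40 and 14 CPM in brainstem control and 1.82, 3.02 and 3.88 CPM in telencephalon control cells at day 0 (log2 fold change 1.40 ± 0.21, adjusted p = 0.020 on culture sums without the block). With passage as a covariate its value was -0.34 at day 1 and -0.23 at day 2.

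At day 2, 12 of the 21 gamma members were lower and 1 was higher in brainstem than in telencephalon controls over wells, all of the lower ones of the A or B type, while the gamma sum was not called (log2 fold change -0.10, adjusted p = 0.52). At day 5, 17 of the 21 gamma members were lower over wells and none was higher, and 9 were lower on culture sums without the block. The gamma sum at day 5 was 240.4 to 347 CPM with a median of 313 in brainstem control and 416 to 699 CPM with a median of 479 in telencephalon control cells, and the 2 sets of libraries did not overlap (log2 fold change -0.77 ± 0.11, adjusted p = 9.3e-09, 0.015 on culture sums without the block). Without the brainstem libraries of cultures 41 and 42 the gamma sum gave -0.69. Pcdhgb6 at day 5 had 5.86, 8.11 and 11.6 CPM in brainstem control and 14.7, 20.9 and 24.9 CPM in telencephalon control cells (log2 fold change -1.24 ± 0.13, adjusted p = 0.00011 on culture sums without the block). Without the brainstem libraries of cultures 41 and 42 Pcdhgb6 gave -1.25 over wells. Pcdhga7 at day 2 had 6.25, 10.3 and 14.7 CPM in brainstem control and 19.9, 28.8 and 31.5 CPM in telencephalon control cells (log2 fold change -1.5 ± 0.14, adjusted p = 0.0099 on culture sums without the block). Pcdhgb1 was lower by 1.42 at day 2 and 1.18 at day 5 (adjusted p = 1.4e-05 and 0.00013). Pcdhga2, Pcdhga7, Pcdhga11 and Pcdhgb1 were the 4 members lower at every day over wells. Beside the gamma differences at day 5, all 6 astrocyte markers were lower in brainstem control (median log2 fold change -2.37), summing to 24.2 to 223 TPM, against 374 to 2301 TPM in telencephalon control. All 5 cycling markers were higher (median 1.23), summing to 39.6 to 106 TPM in brainstem control, against 33.8 to 49.7 TPM in telencephalon control. Their part in the gamma differences was not tested.

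**Figure D3:**
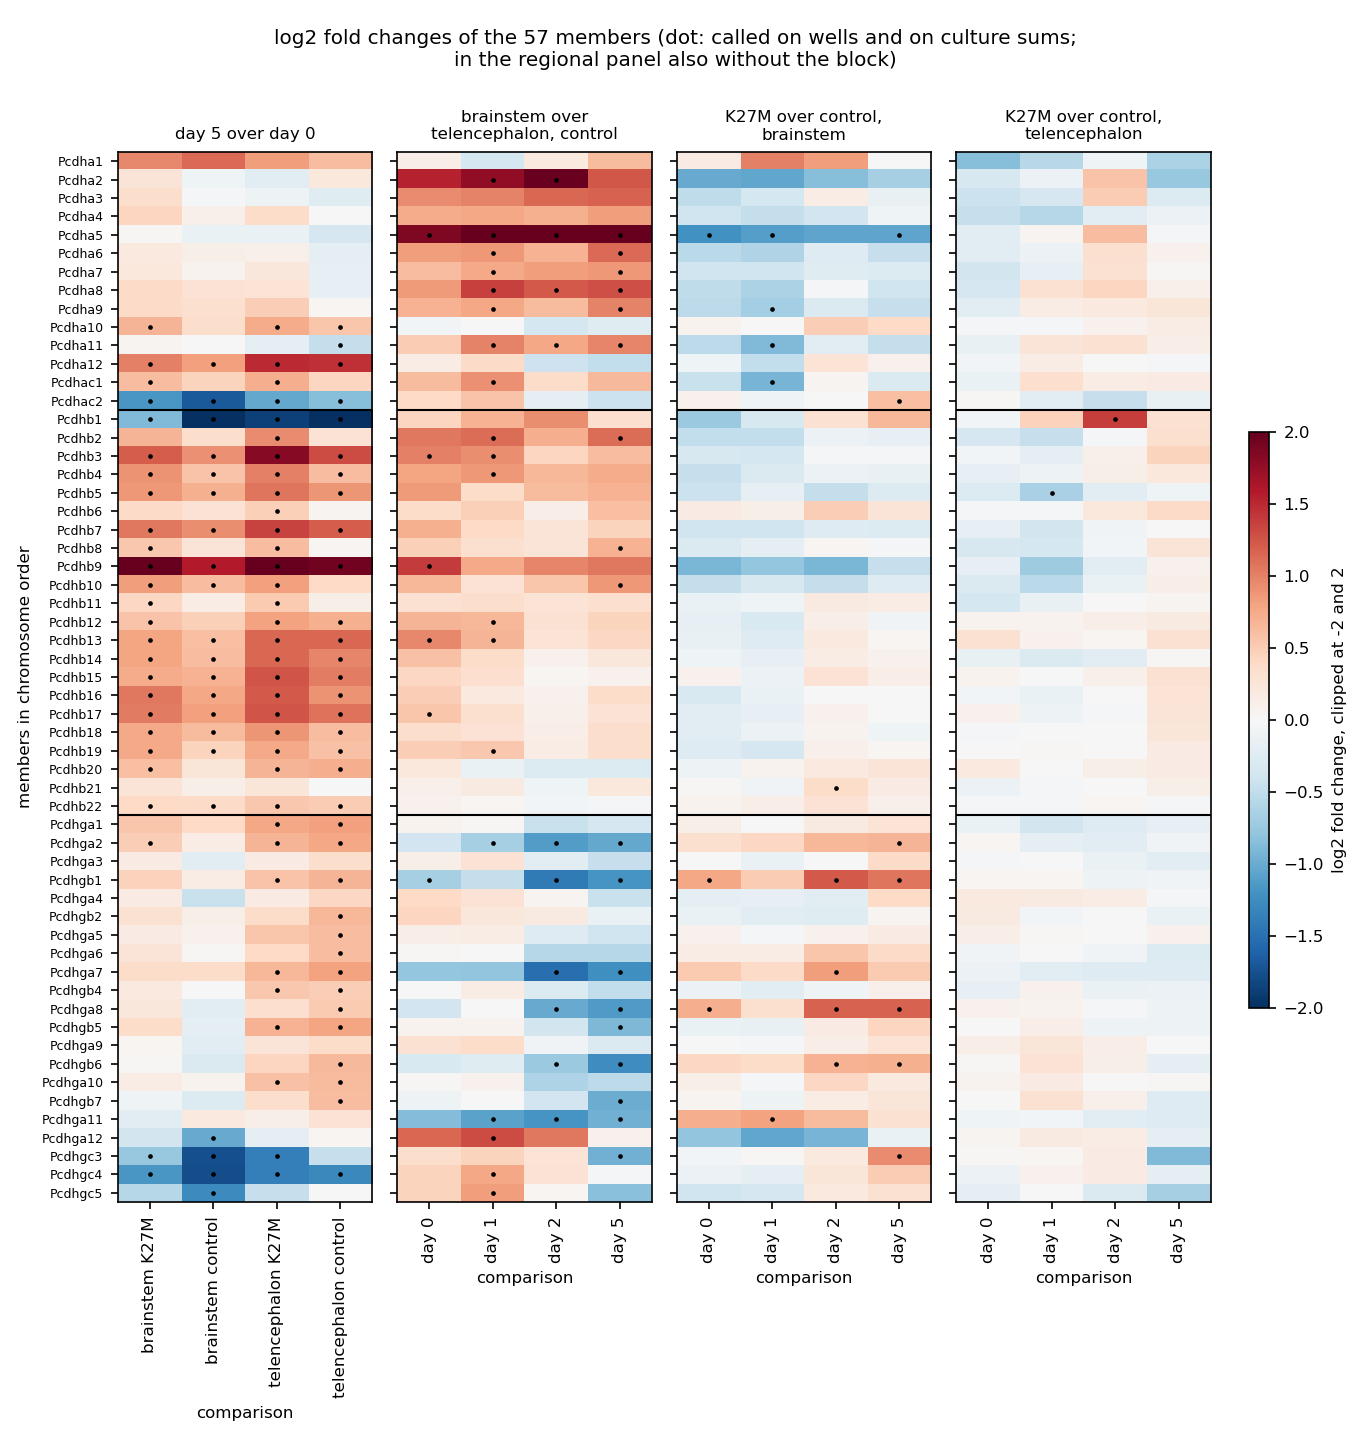
Log2 fold changes of all 57 members in chromosomal order, in panels for day 5 over day 0 in each group, brainstem over telencephalon in control, and K27M over control in brainstem and in telencephalon, with a dot where a member was called over wells and on culture sums (without the block as well in the regional panel). In brainstem controls 9 to 11 of 14 alpha members are higher over wells at each day, 17 of 21 gamma members are lower in brainstem controls at day 5, and 16 to 21 of 22 beta members are higher at day 5 than at day 0.

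In brainstem cells more alpha members were lower and more gamma members higher in K27M than in control cells over wells at days 0, 1 and 5. At day 0, 8 of 14 alpha and 8 of 22 beta members were lower in K27M than in control cells and none was higher, while 5 gamma members were higher and 1 lower. At day 1, 9 alpha members were lower and 1 higher, and 6 gamma members were higher and 1 lower. At day 5, 6 alpha members were lower and 2 higher, and 11 of 21 gamma members were higher and none was lower. Over all 57 members 5 were higher and 17 lower at day 0 (7.69% and 3.64% of all genes), and 7 were higher and 14 lower at day 1 (16.9% and 12% of all genes). There were 12 higher and 7 lower at day 2 (13.6% and 12.5% of all genes), and 16 higher and 7 lower at day 5 (19.8% and 18.8% of all genes). Only 14 of the 228 member comparisons were higher and 6 lower on culture sums, against 3.36% and 1.88% over all genes. On culture sums 1 member, Pcdha5, was lower at day 0. Brainstem K27M cultures had been passaged 1 to 6 times and brainstem control cultures 3 to 8 times. Over wells and all days, 40 of the 228 comparisons were higher and 45 lower, against 41 and 13 with passage as a covariate. They were 36 and 90 without culture 38, 32 and 17 without culture 41 and 46 and 25 without culture 42, so the number of lower members depended on the passage term and on each of the cultures.

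The alpha sum at day 1 was 66.6 to 124 CPM with a median of 86.0 in brainstem K27M and 104 to 162 CPM with a median of 122 in brainstem control cells. The log2 fold change was -0.53 ± 0.10 (adjusted p = 1.1e-05, 0.030 on culture sums), with log2 ratios of -0.17, -0.78 and -0.62 in cultures 38, 41 and 42. Without the block the culture sums did not pass (adjusted p = 0.18), and with passage as a covariate the day 1 value over wells was -0.35 (adjusted p = 0.0022). At day 0 it was -0.37 ± 0.10 (adjusted p = 0.0034, 0.31 on culture sums), without culture 41 it was -0.15 (adjusted p = 0.59), and with passage as a covariate -0.21 (adjusted p = 0.14). At days 2 and 5 it was -0.21 ± 0.10 and -0.19 ± 0.10 (adjusted p = 0.61 and 0.55 on culture sums). The median of the 14 alpha members was -0.48 at day 0 and -0.55 at day 1, against 0.01 and 0.03 over all genes. At day 1, 4 of 5 OPC markers were lower and none higher in brainstem K27M (median log2 fold change -0.51), summing to 198 to 545 TPM, against 285 to 656 TPM in brainstem control. Of 6 myelin markers 4 were higher and none lower (median 1.26), summing to 178 to 1825 TPM in brainstem K27M, against 194 to 725 TPM in brainstem control. The myelin sum was 907, 1739 and 199 TPM in brainstem K27M cultures 38, 41 and 42. It was 224, 451 and 671 TPM in the brainstem control cultures, so culture 42 went the other way. The part of OPC and myelin markers in the alpha difference was not tested.

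Pcdha5, which was higher in brainstem than in telencephalon controls, was lower in brainstem K27M cells on all 4 days over wells. It had 1.58, 3.35 and 6.74 CPM in brainstem K27M and 5.19, 8.65 and 10.6 CPM in brainstem control cells at day 0 (lowest, median and highest library). At day 1 it had 3.6, 5.1 and 8.18 CPM in brainstem K27M and 7.03, 11.9 and 14.3 CPM in brainstem control cells. The log2 fold changes were -1.21, -1.11, -1.05 and -1.05 at days 0, 1, 2 and 5 (adjusted p = 0.033, 0.029, 0.066 and 0.027 on culture sums). None of the 4 passed on culture sums without the block (adjusted p = 0.12, 0.10, 0.17 and 0.080), and with passage as a covariate over wells they were -0.77, -0.65, -0.69 and -0.44. They were not alike among cultures, with -0.34, -2.15 and -1.31 at day 0 and 0.22, -1.42 and -1.74 at day 5 in cultures 38, 41 and 42. Without the day 5 libraries of cultures 41 and 42 the day 5 value was 0.23. Pcdha11 had 4.99, 5.58 and 9.05 CPM in brainstem K27M and 7.98, 10.0 and 16.8 CPM in brainstem control cells at day 1 (log2 fold change -0.88 ± 0.14, adjusted p = 0.0055 on culture sums). Pcdhac1 had 2.62, 3.79 and 6.51 CPM in brainstem K27M and 4.53, 6.71 and 12.1 CPM in brainstem control cells at day 1 (log2 fold change -0.92 ± 0.16, adjusted p = 0.0070 on culture sums), with -0.22, -1.18 and -1.47 in the 3 cultures. Without the block Pcdha11 and Pcdhac1 passed on culture sums (adjusted p = 0.048 and 0.016). Pcdha9 was lower by 0.68 at day 1 (adjusted p = 0.041 on culture sums, 0.12 without the block).

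Pcdhgb1, Pcdhga7, Pcdhga8 and Pcdhgb6 were the 4 members higher in brainstem K27M cells on all 4 days over wells. At day 2 Pcdhgb1 had 8.87, 11.5 and 13.7 CPM in brainstem K27M and 3.46, 4.82 and 7.36 CPM in brainstem control cells. No library of the brainstem groups overlapped, and telencephalon K27M and control cells had 10.5, 12.6 and 14.2 CPM and 7.96, 13.6 and 17.0 CPM. The log2 fold changes in brainstem were 0.77, 0.50, 1.23 and 1.08 at days 0, 1, 2 and 5 (adjusted p = 0.034, 0.14, 0.00026 and 0.00032 on culture sums, of which the day 0 value was 0.057 without the block). Pcdhga8 at day 5 had 14.4, 17.3 and 24.8 CPM in brainstem K27M and 6.22, 8.28 and 10.5 CPM in brainstem control cells, again with no overlap. Its log2 fold changes were 0.73, 0.33, 1.17 and 1.18 (adjusted p = 0.0056, 0.21, 2.6e-05 and 3.8e-06 on culture sums, of which the day 0 value was 0.066 without the block). With passage as a covariate Pcdhga8 was not called at day 1 (0.17, adjusted p = 0.30). Pcdhga7 gave 0.53, 0.38, 0.83 and 0.53, of which the day 2 value passed on culture sums (adjusted p = 0.039, 0.27 without the block). Pcdhgb6 gave 0.41, 0.37, 0.69 and 0.72 (adjusted p = 0.42, 0.35, 0.019 and 0.0090 on culture sums), and without culture 38 its day 0 value was 0.22 and its day 1 value -0.021, neither of which was called. Pcdhga12 had values of -0.79, -1.05 and -0.93 at days 0, 1 and 2 that were not called on culture sums (adjusted p = 0.40, 0.067 and 0.18), and its cultures 38, 41 and 42 gave 0.31, -2.09 and -1.01 at day 1.

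At day 5 the gamma sum and 2 C-type members, Pcdhgc3 and Pcdhac2, were higher in brainstem K27M than in brainstem control cells. The gamma sum was 270.2 to 596 CPM with a median of 486 in brainstem K27M and 240.4 to 347 CPM with a median of 313 in brainstem control cells. Its log2 fold change was 0.59 ± 0.11 (adjusted p = 7.6e-06, 0.015 on culture sums), with log2 ratios of 0.46, 0.74 and 0.56 in cultures 38, 41 and 42. On culture sums without the block the adjusted p was 0.063 for the gamma sum, 0.039 for Pcdhgc3 and 0.071 for Pcdhac2. Pcdhgc3 was 1.93-fold higher (log2 fold change 0.95 ± 0.16, adjusted p = 3.2e-07, 0.014 on culture sums), with 0.58, 1.14 and 1.14 in the 3 cultures. Pcdhac2 had 6.92, 8.09 and 10.1 CPM in brainstem K27M and 4.25, 5.26 and 7.00 CPM in brainstem control cells (log2 fold change 0.60 ± 0.11, adjusted p = 1.3e-06, 0.012 on culture sums). With the day 5 brainstem libraries of cultures 41 and 42 left out, the gamma sum gave 0.46, Pcdhgc3 0.58 and Pcdhac2 0.52. These values rest on wells of culture 38 alone. Pcdhga8 gave 1.04 and Pcdhgb1 0.77 without the same libraries.

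In telencephalon cells fewer members were called. No member was higher and 3 were lower in K27M cells at day 0 (5.97% and 9.75% of all genes), and none was higher and 8 were lower at day 1 (12.9% and 15.9% of all genes). At day 2, 4 were higher and 1 lower (17.0% and 15.4% of all genes), and at day 5, 5 were higher and 3 lower (10.6% and 11.7% of all genes). On culture sums 1 of the 228 member comparisons was higher and 1 lower, against 1.49% and 1.33% over all genes. The higher one was Pcdhb1 at day 2, with 0.206, 0.579 and 0.974 CPM in telencephalon K27M and 0.0731, 0.259 and 0.372 CPM in telencephalon control cells (log2 fold change 1.39 ± 0.28, adjusted p = 4.1e-05, 0.038 on culture sums). The lower one was Pcdhb5 at day 1, with 7.95, 10.3 and 14.8 CPM in telencephalon K27M and 14.6, 16.5 and 20.7 CPM in telencephalon control cells (log2 fold change -0.64 ± 0.12, adjusted p = 1.1e-05, 0.045 on culture sums), and its cultures 38, 41 and 42 gave -0.08, -0.84 and -0.98. On culture sums without the block neither passed (adjusted p = 0.070 for Pcdhb1 and 0.27 for Pcdhb5). The 5 members higher at day 5 were beta members, and the median of the 22 beta members was 0.20, against 0.01 over all genes.

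At day 5 the gamma cluster was lower in telencephalon K27M cells over wells. The gamma sum was 283 to 502 CPM with a median of 412 in telencephalon K27M and 416 to 699 CPM with a median of 479 in telencephalon control cells (log2 fold change -0.38 ± 0.11, adjusted p = 0.0071, 0.22 on culture sums), with -0.65, -0.11 and -0.41 in cultures 38, 41 and 42. Without culture 38 it was -0.29 (adjusted p = 0.066). Pcdhgc3 gave -0.88 ± 0.16 (adjusted p = 5.2e-06, 0.053 on culture sums), with -1.39, -0.63 and -0.78 in the 3 cultures. Pcdhgc3 was thus higher with K27M in all 3 brainstem cultures and lower with K27M in all 3 telencephalon cultures.

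The difference between the K27M effects in brainstem and in telencephalon was tested as an interaction. Over wells 33 of the 228 member comparisons were higher and 23 lower (12.4% and 9.31% of all genes), and on culture sums 7 were higher and 2 lower (2.59% and 1.13% of all genes). For Pcdhgc3 at day 5 the brainstem minus telencephalon difference of log2 fold changes was 1.83 ± 0.22 (adjusted p = 6.5e-11, 0.0061 on culture sums), and without the brainstem day 5 libraries of cultures 41 and 42 it was 1.48. For the gamma sum at day 5 it was 0.97 ± 0.16 (adjusted p = 4.3e-07, 0.015 on culture sums). Without the block the culture sums gave adjusted p = 0.026 for Pcdhgc3 and 0.065 for the gamma sum. Without the brainstem day 5 libraries of cultures 41 and 42 the gamma sum gave 0.86 and Pcdhac2 0.68. For Pcdhac2 at day 5 it was 0.75 ± 0.15 (adjusted p = 3.5e-05, 0.046 on culture sums, 0.18 without the block), and for Pcdhac1 at day 1 it was -1.26 ± 0.23 (adjusted p = 4.2e-06, 0.012 on culture sums, 0.032 without the block).

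Astrocyte markers differed between the same groups at day 5. The sum of 6 of them (Gfap, Aqp4, Aldh1l1, Slc1a2, Slc1a3 and Gja1) was 157, 428 and 252 TPM in brainstem K27M cultures 38, 41 and 42, against 202, 28.2 and 29.4 TPM in brainstem control cultures. It was 100.1, 449 and 834 TPM in telencephalon K27M cultures, against 954, 448 and 1922 TPM in telencephalon control cultures. Pcdhgc3 in the same order was 14.1, 30.3 and 24.8 TPM in brainstem K27M and 7.09, 11.0 and 8.65 TPM in brainstem control cultures. It was 6.2, 10.2 and 16.3 TPM in telencephalon K27M and 13.7, 14.4 and 27.9 TPM in telencephalon control cultures. None of the 6 markers was under 0.1 TPM at day 5 in any group, and 2 of the 6 were higher in brainstem K27M and 2 lower in telencephalon K27M. The marker sum and Pcdhgc3 were both higher in K27M in brainstem cultures 41 and 42, and both lower in telencephalon cultures 38 and 42. In brainstem culture 38 the marker sum was lower and Pcdhgc3 higher in K27M than in control. In telencephalon culture 41 the marker sums were 449 and 448 TPM, and Pcdhgc3 was at 10.2 TPM in K27M and 14.4 TPM in control. Of 7 neuron markers tested, 4 were higher in brainstem K27M and 5 in telencephalon K27M than in control at day 5, and none was lower. The part of astrocytes and neurons in the Pcdhgc3 and gamma differences was not tested.

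**Figure D4:**
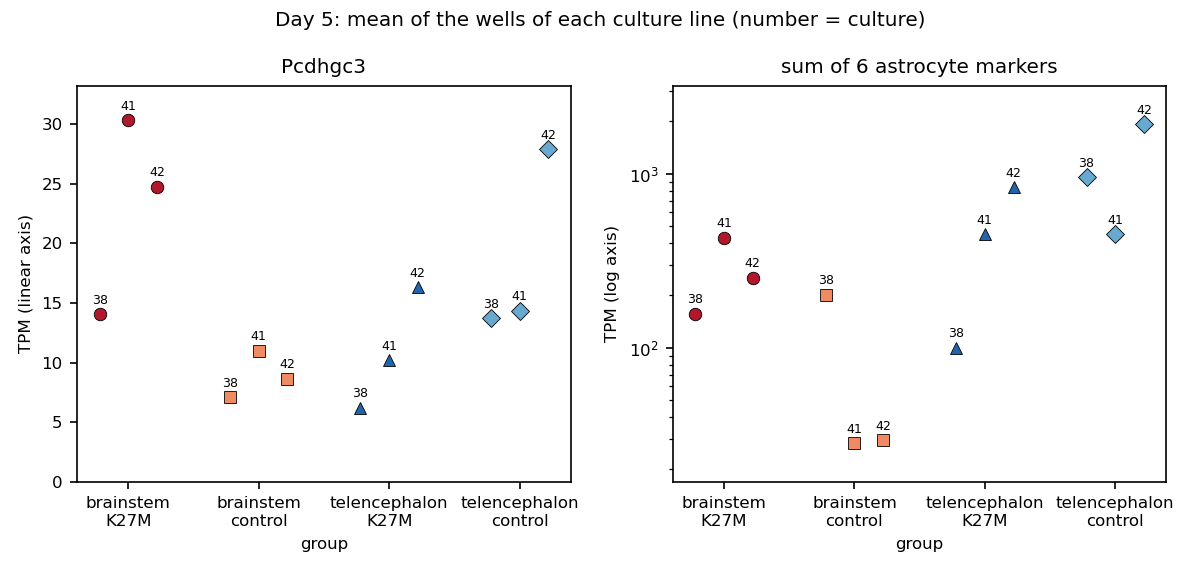
Pcdhgc3 (TPM) and the sum of 6 astrocyte markers (TPM) at day 5 for each of the 12 culture lines, drawn as the mean over the wells of a line. Pcdhgc3 is higher in K27M than in control in each brainstem culture (14.1 against 7.09, 30.3 against 11.0 and 24.8 against 8.65 TPM), and lower in each telencephalon culture (6.2 against 13.7, 10.2 against 14.4 and 16.3 against 27.9 TPM), and the marker sum varies from 28.2 to 1922 TPM.

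The mix of gamma A and B members in brainstem control cultures 41 and 42 lay apart from that in the other lines. Brainstem control culture 41 gave 13.7% of its gamma A and B TPM to Pcdhga4 and 10.9% to Pcdhga12, where the medians over the 12 lines were 6.89% and 3.39%, as the mean over the 4 days. By day the share of Pcdhga4 in culture 41 was 14.4%, 13.1%, 16.3% and 9.75% at days 0, 1, 2 and 5, and that of Pcdhga12 was 11.0%, 13.7%, 10.9% and 4.95%, so both were lowest at day 5. Brainstem control culture 42 gave 10.7% to Pcdhgb2, 9.87% to Pcdhga3, 8.2% to Pcdhga9, 8.06% to Pcdhga5 and 7.78% to Pcdhga1. Pcdhgb1 took 1.95% in brainstem control culture 41 and 2.55% in culture 42, against a median of 4.32%. The effective number of gamma A and B members, which is 18 when all are equally used, was 16 in brainstem control culture 41 and 16.3 in culture 42, and 17.2 to 17.5 in the other 10 lines. Pcdhgc3 held 92.4% to 95.5% of the gamma C TPM in every line. The brainstem K27M differences of Pcdhgb1, Pcdhga8 and Pcdhga12 set K27M cultures against these 2 control lines and culture 38. The regional differences in controls draw on the same lines. Shares are of TPM and were described without a test.

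**Figure D5:**
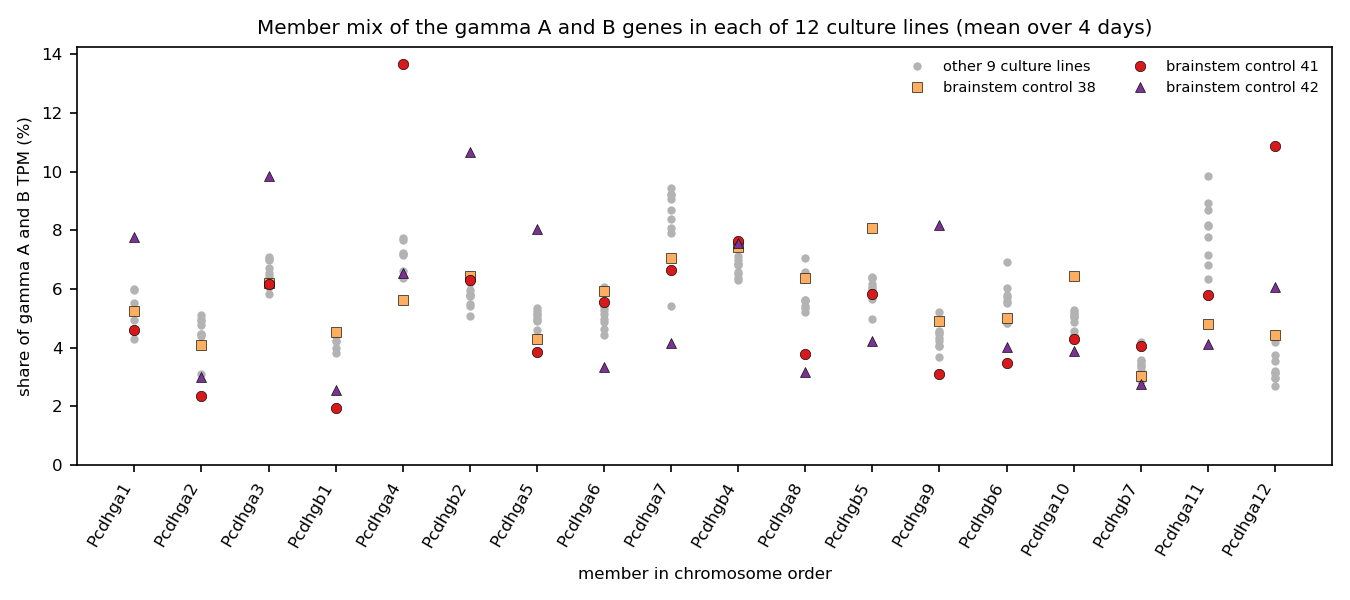
Share (%) of each of the 18 gamma A and B members in the gamma A and B TPM of its line, for the 12 culture lines with the brainstem control cultures 38, 41 and 42 drawn apart. Brainstem control culture 41 lies above the rest at Pcdhga4 (13.7%) and Pcdhga12 (10.9%), and culture 42 at Pcdhgb2 (10.7%) and Pcdhga3 (9.87%).

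Genes around and beside the clustered protocadherins were looked at in the same comparisons. Over wells, 39.1% to 41.0% of all genes rose and 33.2% to 35.1% fell at day 5 over day 0 in the 4 groups. For brainstem over telencephalon controls, 15.8% to 25.1% of all genes were higher and 19.4% to 29.0% lower at the 4 days. For brainstem K27M over control, 7.69% to 19.8% of all genes were higher and 3.64% to 18.8% lower. Of 12 nonclustered protocadherins, which lie elsewhere in the genome as single genes, 11 were tested, and at day 5 over day 0, 6 rose and 3 fell in brainstem K27M, 5 and 5 in brainstem control, 6 and 4 in telencephalon K27M and 5 and 5 in telencephalon control. In brainstem over telencephalon controls 6, 7, 3 and 7 of them were higher and 1, 1, 4 and 2 lower at days 0, 1, 2 and 5, with median log2 fold changes of 0.28, 0.51, -0.02 and 0.42. In brainstem K27M over control 1, 0, 2 and 4 of them were higher and 2, 4, 1 and 5 lower at days 0, 1, 2 and 5. The median log2 fold change at day 5 was -0.31, against -0.03 over all genes. Pcdh20, a higher one, had 6.27, 7.23 and 10.8 CPM in brainstem K27M and 0.925, 1.75 and 3.18 CPM in brainstem control cells at day 5 (lowest, median and highest library), and the libraries did not overlap (log2 fold change 2.12, adjusted p = 0.00041 on culture sums). Of 18 genes for regulators of the clusters (CTCF, cohesin and its regulators, SMCHD1, REST, SETDB1, TRIM28 and DNA methyltransferases), 2 rose and 12 fell in brainstem K27M, 3 and 13 in brainstem control, 3 and 13 in telencephalon K27M and 2 and 13 in telencephalon control. Ctcf, which codes for the protein that binds the promoters and enhancers of the clusters, had log2 fold changes of -0.64, -0.59, -0.70 and -0.74 in the same order. Dnmt3a, a de novo DNA methyltransferase, rose by 0.98, 1.55, 1.32 and 1.48. In brainstem K27M over control, 1 to 4 of the 18 were higher and 0 to 4 lower at the 4 days, and their median log2 fold change was between -0.02 and 0.01. Of 14 genes for partners and effectors of protocadherins 8, 8, 7 and 7 rose and 3, 4, 4 and 2 fell with days in the same order of groups. Of 6 neighbours of the locus (Zmat2, Taf7, Slc25a2, Diaph1, Hdac3 and Rell2), none was called in brainstem K27M over control at days 0 and 2, 2 were higher at day 1, and 2 were higher and 1 lower at day 5.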

How the data were processed

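RNA-seq libraries (TruSeq Stranded Total RNA, paired-end) were quantified by the authors with Salmon 1.10.1 against mm10, with corrections for sequence and GC bias. The deposited values are expected counts and TPM per transcript. Both were summed here per gene through GENCODE M21 names (139821 of 141084 transcripts matched), and unmatched transcripts, 0.252% to 0.377% of the counts, stayed out of library sizes and tests. Estimated counts were rounded to whole numbers, filtered on low counts (19769 genes kept) and scaled by TMM. edgeR 4.0.16 (R 4.3.3) fitted all libraries in 16 groups with culture within region as a block, following the study's use of culture ID. The study's methods state that matched control and K27M cultures of a region were assayed together. Over 24 pairs of same-numbered lines the correlation of deviations from group means was -0.27 to 0.78 (median 0.27). Of these, 20 pairs were over 0.1 and 17 correlated best with their own number. The same lines recur at each day, so the pairs are not independent. At days 0, 1, 2 and 5 brainstem culture 42 correlated at 0.39, -0.27, 0.03 and 0.24, never best with its own number. Brainstem culture 38 correlated best with its own number at each day. It is the only brainstem culture of its batch, so pairing and batch cannot be told apart there. The quasi-likelihood p-values of edgeR were adjusted by Benjamini-Hochberg over all genes tested, with calls at 0.05. The same fit was run on counts summed over the wells of a culture and day, with and without the block (23006 genes). For cluster sums, the members' counts were replaced by their sum in a fit of the whole table.

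Named members were the cluster sums, the 5 C-type members, the 4 members of each cluster with the highest mean TPM, and, for each kind of comparison, up to 4 members in each direction with the largest log2 fold change among those called over wells and on culture sums with the same sign in all 3 cultures. Pcdhga12, Pcdh20 and Dnmt3a and the members named for their shares in a line fall outside it or were singled out after their values were seen. The members and gene lists were chosen with earlier results of these data known. Alternatives were DESeq2 1.42.0 with a fold threshold of 1.1, its size factors in edgeR, no filter on low counts, length offsets, passage as a covariate, no block, and leaving out the deepest library or each culture. The edgeR script was tested on simulated data. Depth limits the precision of trace members such as Pcdha1 and Pcdhb1.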

Additional observations from a re-analysis of the deposited data

Results flagged for a closer look

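In 3 of 64 groups and sums looked at, 1 library lay far from the others of its group. A chance rate of about 1 in 20 holds for independent libraries only, and wells of a culture share their cells. The beta sum in brainstem K27M cells at day 5 was 495.2 CPM in a culture 38 library, against 433.2 CPM in the next. The beta sum in brainstem control cells at day 0 was 394.5 CPM in a culture 42 library, against 321.3 CPM in the next. Pcdhgc3 in telencephalon K27M cells at day 1 was 208.5 CPM in a culture 42 library, against 283.2 CPM in the next.

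The K27M effect differed between brainstem and telencephalon in 8 of 32 interaction tests on cluster sums and C-type members over wells, by edgeR's quasi-likelihood test with Benjamini-Hochberg adjustment. On culture sums 4 of the 8 were called. Pcdhgc3 at day 5 had a difference of 1.831 on the log2 scale (adjusted p = 0.0061 on culture sums), from 0.95 in brainstem and -0.88 in telencephalon. The gamma sum at day 5 had 0.9723 (adjusted p = 0.015 on culture sums) and Pcdhac2 at day 5 had 0.751 (adjusted p = 0.046 on culture sums). Pcdhac1 at day 1 had -1.2616 (adjusted p = 0.012 on culture sums), from -0.92 in brainstem and 0.34 in telencephalon. The other 4 were not called on culture sums. They were the alpha sum at day 1 with -0.4726 (adjusted p = 0.15), Pcdhac2 at day 2 with 0.4509 (adjusted p = 0.55), Pcdhgc4 at day 5 with 0.7039 (adjusted p = 0.18) and Pcdhgc5 at day 5 with 0.9564 (adjusted p = 0.19).

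Pcdhgb8, the polymorphic pseudogene left out of the members, had a mean of 2.413 TPM over all libraries (0.385 to 4.87 TPM). Its counts were 4.07% of those of the gamma members.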

How the results depend on the processing

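Over the cluster sums and counts of members, calls depended most on whether wells or cultures were the samples. The alternatives with wells summed and no block, and with the brainstem day 5 libraries of cultures 41 and 42 left out, were chosen after seeing the data. The causes of the changes below were not tested, except that summing wells leaves fewer samples. The block follows the study's use of culture ID and its matched culture pairs.

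With the wells of a culture summed, the number of members called higher was 14 (instead of 40) in K27M over control in brainstem, 1 (instead of 9) in K27M over control in telencephalon, 69 (instead of 113) in brainstem over telencephalon in control, 22 (instead of 88) in brainstem over telencephalon in K27M and 7 (instead of 33) in the interaction. The number of members called lower was 6 (instead of 45) in K27M over control in brainstem, 1 (instead of 15) in K27M over control in telencephalon, 26 (instead of 44) in brainstem over telencephalon in control, 0 (instead of 9) in brainstem over telencephalon in K27M and 2 (instead of 23) in the interaction. Log2 fold changes no longer passed at -0.37 for alpha at day 0 in K27M over control in brainstem, 0.48 for alpha at day 0, 0.40 for beta at day 0, 0.40 for alpha at day 1, 0.41 for beta at day 1, 0.34 for alpha at day 2, 0.30 for beta at day 2, 0.43 for alpha at day 5 and 0.26 for beta at day 5 in brainstem over telencephalon in K27M, 0.34 for gamma at day 1 and 0.30 for beta at day 2 in brainstem over telencephalon in control, -0.46 for alpha at day 1 in the interaction and -0.40 for gamma at day 5 in K27M over control in telencephalon.

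With wells summed and no replicate block, the number of members called higher was 8 (instead of 40) in K27M over control in brainstem, 0 (instead of 9) in K27M over control in telencephalon, 35 (instead of 113) in brainstem over telencephalon in control, 0 (instead of 88) in brainstem over telencephalon in K27M, 80 (instead of 132) in day 5 over day 0 and 4 (instead of 33) in the interaction. The number of members called lower was 2 (instead of 45) in K27M over control in brainstem, 0 (instead of 15) in K27M over control in telencephalon, 18 (instead of 44) in brainstem over telencephalon in control, 0 (instead of 9) in brainstem over telencephalon in K27M and 1 (instead of 23) in the interaction. Log2 fold changes no longer passed at -0.34 for alpha at day 0, -0.51 for alpha at day 1 and 0.63 for gamma at day 5 in K27M over control in brainstem, 0.52 for beta at day 0, 0.44 for beta at day 1, 0.37 for gamma at day 1, 0.60 for alpha at day 2, 0.30 for beta at day 2, 0.58 for alpha at day 5 and 0.42 for beta at day 5 in brainstem over telencephalon in control, 0.51 for alpha at day 0, 0.40 for beta at day 0, 0.42 for alpha at day 1, 0.40 for beta at day 1, 0.37 for alpha at day 2, 0.30 for beta at day 2, 0.45 for alpha at day 5 and 0.25 for beta at day 5 in brainstem over telencephalon in K27M, -0.44 for alpha at day 1 and 1.03 for gamma at day 5 in the interaction, -0.40 for gamma at day 5 in K27M over control in telencephalon, -0.35 for gamma in day 5 over day 0 in brainstem K27M and -0.38 for gamma in day 5 over day 0 in telencephalon K27M.

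Without the replicate block over wells, the number of members called higher was 3 (instead of 9) in K27M over control in telencephalon. The number of members called lower was 8 (instead of 15) in K27M over control in telencephalon, 3 (instead of 9) in brainstem over telencephalon in K27M and 13 (instead of 23) in the interaction. Log2 fold changes no longer passed at -0.33 for alpha at day 0 in K27M over control in brainstem, 0.31 for gamma at day 1 in brainstem over telencephalon in control and 0.30 for alpha at day 2, 0.25 for beta at day 2 and 0.23 for beta at day 5 in brainstem over telencephalon in K27M.

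Under DESeq2 with a fold threshold of 1.1, the number of members called higher was 21 (instead of 40) in K27M over control in brainstem, 1 (instead of 9) in K27M over control in telencephalon, 51 (instead of 88) in brainstem over telencephalon in K27M and 19 (instead of 33) in the interaction. The number of members called lower was 20 (instead of 45) in K27M over control in brainstem, 5 (instead of 15) in K27M over control in telencephalon, 28 (instead of 44) in brainstem over telencephalon in control, 0 (instead of 9) in brainstem over telencephalon in K27M and 11 (instead of 23) in the interaction. Log2 fold changes no longer passed at -0.36 for alpha at day 0 in K27M over control in brainstem, 0.32 for gamma at day 1 and 0.26 for beta at day 2 in brainstem over telencephalon in control, 0.37 for alpha at day 1, 0.37 for beta at day 1, 0.32 for alpha at day 2, 0.28 for beta at day 2, 0.39 for alpha at day 5 and 0.22 for beta at day 5 in brainstem over telencephalon in K27M, -0.38 for gamma at day 5 in K27M over control in telencephalon, -0.35 for gamma in day 5 over day 0 in brainstem K27M and -0.33 for gamma in day 5 over day 0 in telencephalon K27M.

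With no filter on low counts, the number of members called higher was 4 (instead of 9) in K27M over control in telencephalon. The number of members called lower was 3 (instead of 9) in brainstem over telencephalon in K27M and 14 (instead of 23) in the interaction.

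With length offsets, log2 fold changes newly passed at -0.24 for beta at day 1 in K27M over control in telencephalon and 0.22 for alpha in day 5 over day 0 in telencephalon K27M.

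With passage as a covariate, the number of members called lower was 13 (instead of 45) in K27M over control in brainstem and 11 (instead of 23) in the interaction. The number of members called higher was 46 (instead of 113) in brainstem over telencephalon in control and 54 (instead of 88) in brainstem over telencephalon in K27M. Log2 fold changes no longer passed at -0.21 for alpha at day 0 in K27M over control in brainstem, 0.16 for beta at day 0, 0.24 for gamma at day 1, 0.25 for alpha at day 2 and 0.076 for beta at day 5 in brainstem over telencephalon in control and 0.15 for alpha at day 1, 0.13 for beta at day 1, 0.13 for alpha at day 2, 0.063 for beta at day 2 and 0.060 for beta at day 5 in brainstem over telencephalon in K27M. Log2 fold changes newly passed at 0.19 for beta at day 5 in K27M over control in telencephalon and 0.19 for alpha in day 5 over day 0 in telencephalon K27M. Log2 fold changes changed sign at -0.041 for Pcdhb16 at day 0, -0.0040 for beta at day 1, -0.22 for Pcdhb1 at day 1, -0.23 for Pcdhb5 at day 1, -0.34 for Pcdhb9 at day 1, -0.14 for beta at day 2, -0.086 for Pcdha4 at day 2, -0.0047 for Pcdhb1 at day 2, -0.17 for Pcdhb10 at day 2, -0.15 for Pcdhb3 at day 2, -0.011 for Pcdhb5 at day 2, -0.11 for Pcdhb7 at day 2, -0.23 for Pcdhb9 at day 2, -0.19 for Pcdhb16 at day 5 and -0.0014 for Pcdhb9 at day 5 in brainstem over telencephalon in control.

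Without the deepest library, log2 fold changes newly passed at -0.24 for alpha at day 5 in K27M over control in brainstem.

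Without the brainstem day 5 libraries of cultures 41 and 42, the number of members called lower was 4 (instead of 9) in brainstem over telencephalon in K27M. Log2 fold changes no longer passed at 0.46 for gamma at day 5 in K27M over control in brainstem, 0.27 for alpha at day 5 and 0.18 for beta at day 5 in brainstem over telencephalon in control and 0.31 for beta at day 5 in brainstem over telencephalon in K27M. Log2 fold changes newly passed at -0.41 for alpha in day 5 over day 0 in brainstem control and 0.31 for alpha in day 5 over day 0 in brainstem K27M. Log2 fold changes changed sign at 0.29 for Pcdha11 at day 5, 0.61 for Pcdha2 at day 5, 0.23 for Pcdha5 at day 5, 0.46 for Pcdha8 at day 5 and 0.26 for Pcdha9 at day 5 in K27M over control in brainstem, -0.076 for Pcdhb16 at day 5 in brainstem over telencephalon in control, 0.17 for Pcdha11 at day 5, 0.26 for Pcdha5 at day 5 and 0.021 for Pcdha9 at day 5 in the interaction, -0.066 for Pcdha9 and -0.15 for Pcdhac1 in day 5 over day 0 in brainstem control and -0.033 for Pcdhga7 in day 5 over day 0 in brainstem K27M.

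With each culture left out in turn, the counts of calls that moved ranged over 17 to 90 lower in K27M over control in brainstem, 7 to 20 lower in K27M over control in telencephalon, 2 to 14 lower in brainstem over telencephalon in K27M and 9 to 39 lower in the interaction. The log2 fold changes of cluster sums whose call changed ranged over -0.56 to -0.15 for alpha at day 0, -0.47 to -0.11 for beta at day 0, -0.32 to 0.0017 for beta at day 1, -0.32 to -0.11 for alpha at day 2, -0.26 to 0.081 for beta at day 2 and -0.43 to 0.061 for alpha at day 5 in K27M over control in brainstem, 0.10 to 0.42 for gamma at day 0, 0.074 to 0.63 for gamma at day 1 and 0.019 to 0.47 for beta at day 2 in brainstem over telencephalon in control, -0.31 to -0.047 for beta at day 1 and -0.51 to -0.29 for gamma at day 5 in K27M over control in telencephalon, 0.19 to 0.35 for gamma at day 1, 0.17 to 0.38 for alpha at day 2, 0.24 to 0.28 for beta at day 2, 0.21 to 0.55 for alpha at day 5, 0.16 to 0.29 for beta at day 5 and 0.080 to 0.36 for gamma at day 5 in brainstem over telencephalon in K27M, -0.65 to -0.38 for alpha at day 1 and -0.44 to -0.14 for alpha at day 2 in the interaction, -0.26 to 0.021 for alpha in day 5 over day 0 in brainstem control, -0.63 to -0.16 for gamma in day 5 over day 0 in brainstem K27M and -0.0047 to 0.26 for alpha and -0.53 to -0.16 for gamma in day 5 over day 0 in telencephalon K27M. Members whose sign changed ranged over -0.12 to 0.77 for Pcdhga4, brainstem over telencephalon in control, day 0 (sign changed without culture 41), -0.021 to 0.65 for Pcdhgb6, K27M over control in brainstem, day 1 (sign changed without culture 38) and -0.043 to 0.53 for Pcdhga7, day 5 over day 0 in brainstem control (sign changed without culture 41).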
